A study of Mus musculus with 8 samples.

Results

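Voltage-gated calcium channels are built around a pore-forming alpha-1 subunit that is accompanied by an alpha-2-delta subunit and a beta subunit, and these auxiliary partners are encoded in the mouse by 8 genes, Cacna2d1 to Cacna2d4 and Cacnb1 to Cacnb4. All 8 symbols were found, each on 1 row, among 48315 gene symbols measured in dorsal root ganglia, the clusters of sensory neuron cell bodies and glia beside the spinal cord. RNA was profiled in 8 libraries, 4 labelled female and 4 labelled male, each from ganglia of WT mice of the strain SW that had been given saline. The labels used here state neither ages nor how many animals a library holds or whether animals were pooled, so p-values measure the spread between these libraries, which may be partly technical. The libraries were made with a 3′ end kit, and levels are given as CPM, reads per 1000000 counted reads of a library.

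Alpha-2-delta proteins sit on the outer face of the membrane and bring channels to the surface and to the presynaptic terminal. The first and second of them, the products of Cacna2d1 and Cacna2d2, bind gabapentin and pregabalin, drugs used against neuropathic pain, and in rodents the first rises in sensory neurons after nerve injury. Beta subunits are cytosolic proteins that bind the loop between the first and second repeats of a high-voltage-activated alpha-1 subunit, protect it from degradation and set its gating.

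The 2 most abundant members were Cacna2d1 and Cacnb4, and the start regions of these genes and of Cacnb3, the member with the largest spread between libraries, are shown here. RefSeq windows on GRCm38.p6 that run from 250 bases before to 50 bases after an annotated start were matched by symbol for 7 of the 8 members. The lines run 5′ to 3′ on the gene's strand, and capitals mark CG, the dinucleotide whose cytosine can be methylated and which reads the same on both strands.
Cacna2d1, chr5:15934441-15934740, plus strand: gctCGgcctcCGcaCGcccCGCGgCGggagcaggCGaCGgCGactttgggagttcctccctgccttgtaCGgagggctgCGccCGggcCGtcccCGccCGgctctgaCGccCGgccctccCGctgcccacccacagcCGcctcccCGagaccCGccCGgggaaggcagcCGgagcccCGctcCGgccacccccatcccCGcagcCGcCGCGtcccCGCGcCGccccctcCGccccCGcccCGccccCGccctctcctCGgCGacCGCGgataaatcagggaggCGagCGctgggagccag
Cacnb4 window 3, chr2:52676094-52676393, minus strand: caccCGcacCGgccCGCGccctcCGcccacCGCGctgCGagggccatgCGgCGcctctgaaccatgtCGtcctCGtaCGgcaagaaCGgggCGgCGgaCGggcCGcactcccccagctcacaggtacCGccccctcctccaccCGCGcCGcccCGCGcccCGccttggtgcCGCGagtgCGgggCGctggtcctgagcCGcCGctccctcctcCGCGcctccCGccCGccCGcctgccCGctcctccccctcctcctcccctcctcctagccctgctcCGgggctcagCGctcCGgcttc
Cacnb3 first window, chr15:98632078-98632377, plus strand: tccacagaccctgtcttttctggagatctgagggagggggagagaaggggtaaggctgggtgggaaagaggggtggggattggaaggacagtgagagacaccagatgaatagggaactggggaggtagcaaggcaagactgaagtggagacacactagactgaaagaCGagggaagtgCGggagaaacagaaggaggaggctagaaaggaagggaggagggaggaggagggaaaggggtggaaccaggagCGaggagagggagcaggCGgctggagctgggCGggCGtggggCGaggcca
Cacnb3 second window, chr15:98634517-98634816, plus strand: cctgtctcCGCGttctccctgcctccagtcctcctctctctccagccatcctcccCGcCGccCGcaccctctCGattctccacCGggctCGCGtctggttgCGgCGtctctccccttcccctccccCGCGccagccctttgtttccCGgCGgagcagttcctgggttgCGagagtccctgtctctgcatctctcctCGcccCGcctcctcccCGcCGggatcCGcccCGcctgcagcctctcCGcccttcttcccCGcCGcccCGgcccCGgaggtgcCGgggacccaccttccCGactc
The Cacna2d1 window held 42 CG, a number reached by 3.03% of all 32851 windows, and the Cacnb4 window shown, the richest of 3 for that gene, held 40, reached by 3.91%. The other Cacnb4 windows held 27 CG (reached by 15.5% of windows) and 5 CG (62%). Cacnb3 has 2 windows in that table that differ in this respect, with 7 CG in the first (reached by 52.1% of windows) and 29 in the second (12.9%). The richest window of each of the 7 matched members held 29 CG or more, where the median of all single windows was 7. Cacnb1, Cacnb2, Cacnb3 and Cacnb4 have more than 1 window, and the poorest of each held 3, 4, 7 and 5 CG. Reads from the 3′ end do not tell which start a transcript used.

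The libraries carried between 7497795 and 12155804 counted reads, and 3 reads corresponded to 0.247 to 0.40 CPM. All 13 sensory neuron markers averaged at least 1 CPM, so the tissue had its defining transcripts. Xist and the Y-linked Ddx3y did not match the labels of the libraries called female 1 (0.270 and 102 CPM) and male 1 (294 and 0.855 CPM), while in the other libraries Xist was 162 to 349 CPM by female label and 1.63 to 5.44 CPM by male label. Results by label are therefore given with and without these 2 libraries. The library labelled male 2 held central nervous system transcripts, with a summed level of 8 markers of 313 CPM against 8.04 to 19.4 CPM elsewhere, where Opalin was at 0 in some libraries, and Mog at 37.1 CPM against at most 1.23 CPM. In female 3, female 4 and male 4 the ribosomal RNA locus gene AY036118 was listed at 0, against 20085 to 46216 CPM in the other 5.

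Among the alpha-2-delta genes, Cacna2d1 (ENSMUSG00000040118.15, GRCm38 chromosome 5, 15934691 to 16374511, plus strand) had the highest level, and it was also the one that varied most. It stood at 493, 154, 182 and 228 CPM in female 1 to 4, against 264, 193, 180 and 555 CPM in male 1 to 4. Female 1 and male 4 stood above the other 6 libraries, 1 of each label, and the labels overlapped. These 2 libraries were also the highest pair for 6.1% of all tested genes. The SD over the 8 libraries was 0.69 on the log2(CPM + 1) scale, larger than for 85.9% of tested genes. Skeletal muscle uses the products of Cacna2d1 and Cacnb1 in its excitation-contraction coupling channel, so 7 muscle markers were summed. All 7 averaged at least 1 CPM and none was at 0 in any library. Their sum was 1870, 1596, 368 and 1394 CPM in female 1 to 4, against 1812, 1679, 1664 and 855 CPM in male 1 to 4. The muscle sum was highest in female 1 and second lowest in male 4. Cacna1s, the pore subunit of skeletal muscle, had 9, 1, 0 and 1 reads in female 1 to 4, against 2, 0, 0 and 5 reads in male 1 to 4. On these few reads, female 1 and male 4 were its highest libraries. The part of muscle RNA in the levels of Cacna2d1 and Cacnb1 was not tested.

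Cacna2d2 (ENSMUSG00000010066.15, chromosome 9, 107399612 to 107529343, plus strand), the gene mutated in the ducky mouse with ataxia and seizures, had the next highest level of the family. It stood at 121, 69.6, 57.1 and 71.5 CPM in female 1 to 4, against 120, 116, 71.3 and 128 CPM in male 1 to 4. Female 2, 3 and 4 and male 3 formed a low set, and female 1 lay with the other males. Cacna2d3 (ENSMUSG00000021991.8, chromosome 14, 28904943 to 29721864, minus strand), whose loss alters the central processing of heat pain in mice, was the steadiest member. It had 35.8, 51.8, 41.6 and 40.1 CPM in female 1 to 4, against 48.8, 54.8, 54.6 and 35.6 CPM in male 1 to 4. Female 1 and male 4, the highest for Cacna2d1, were the lowest for Cacna2d3. Its SD of 0.26 on the log2(CPM + 1) scale was above that of only 14.8% of tested genes.

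Cacna2d4 (ENSMUSG00000041460.14, chromosome 6, 119236526 to 119352407, plus strand), the alpha-2-delta gene of retinal photoreceptors, lay near the counting limit and was not tested. It had 4, 3, 10 and 2 reads in female 1 to 4, against 1, 8, 5 and 0 reads in male 1 to 4. These reads correspond to at most 1.26 CPM, in female 3 (95% exact binomial interval 0.604 to 2.32), and the count of 0 in male 4 has an exact upper bound of 0.378 CPM, where 3 reads are 0.308 CPM. Intervals and limits of this kind cover counting error only. Expression of Cacna2d4 above the limit of 3 reads was therefore seen in 4 of 8 libraries.

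Among the beta genes, Cacnb4 (ENSMUSG00000017412.15, chromosome 2, 52428320 to 52676831, minus strand), the gene mutated in the lethargic mouse, dominated. It stood at 274, 231, 149 and 173 CPM in female 1 to 4, against 296, 444, 265 and 387 CPM in male 1 to 4. The 3 lowest values were those of female 2, 3 and 4 and the highest that of male 2, the library with central nervous system transcripts. Female 1 lay above male 3, so the labels overlapped over 8 libraries. Cacnb4 shares 1433 exonic bases with A430018G15Rik on the other strand, which was itself listed at up to 1.85 CPM, and reads of the pair in these bases cannot be told apart.

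Cacnb3 (ENSMUSG00000003352.13, chromosome 15, 98630840 to 98644529, plus strand), a beta subunit of neurons and smooth muscle, fell into separate levels. It had 24.9, 34.1, 8.95 and 9.47 CPM in female 1 to 4, against 26.4, 27.7, 22.2 and 11.3 CPM in male 1 to 4. The 3 low libraries, female 3, female 4 and male 4, are those in which the ribosomal locus was listed at 0, with 9.90 ± 1.22 CPM (SD, n = 3) against 27.0 ± 4.43 CPM in the other libraries (SD, n = 5). Of all tested genes, 4.41% had all 3 of these libraries below the other 5 and 5.42% had all 3 above. The libraries were not tested by this split, which came from the data. None of the other 6 tested members separated in this way.

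Cacnb1 (ENSMUSG00000020882.17, chromosome 11, 98001508 to 98023034, minus strand) encodes the beta subunit of skeletal muscle, which neurons also express. It had 14.7, 9.05, 8.82 and 12.3 CPM in female 1 to 4, against 11.9, 5.98, 10.6 and 13.8 CPM in male 1 to 4. Female 1 was highest, male 4 came next, and the lowest level was that of male 2. Cacnb2 (ENSMUSG00000057914.15, chromosome 2, 14603088 to 14987908, plus strand), the main beta subunit gene of the heart, was low throughout, with 3.34, 1.73, 1.76 and 3.07 CPM in female 1 to 4, against 1.83, 4.35, 3.73 and 2.87 CPM in male 1 to 4. Male 2 was again the highest library, at 40 reads, with an exact binomial interval of 3.11 to 5.92 CPM, and female 2 the lowest, at 21 reads and 1.07 to 2.64 CPM. Cacnb2 shares 618 exonic bases with Gm10849 (up to 0.410 CPM) and 239 with Gm13269 (up to 0.247 CPM), both on the other strand. It also shares 111 with Gm10848, listed at 0. Reads in these bases cannot be told apart. How far the central nervous system transcripts in male 2 bear on the values of Cacnb4, Cacnb2 and Cacnb1 was not tested.

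**Figure D1:**
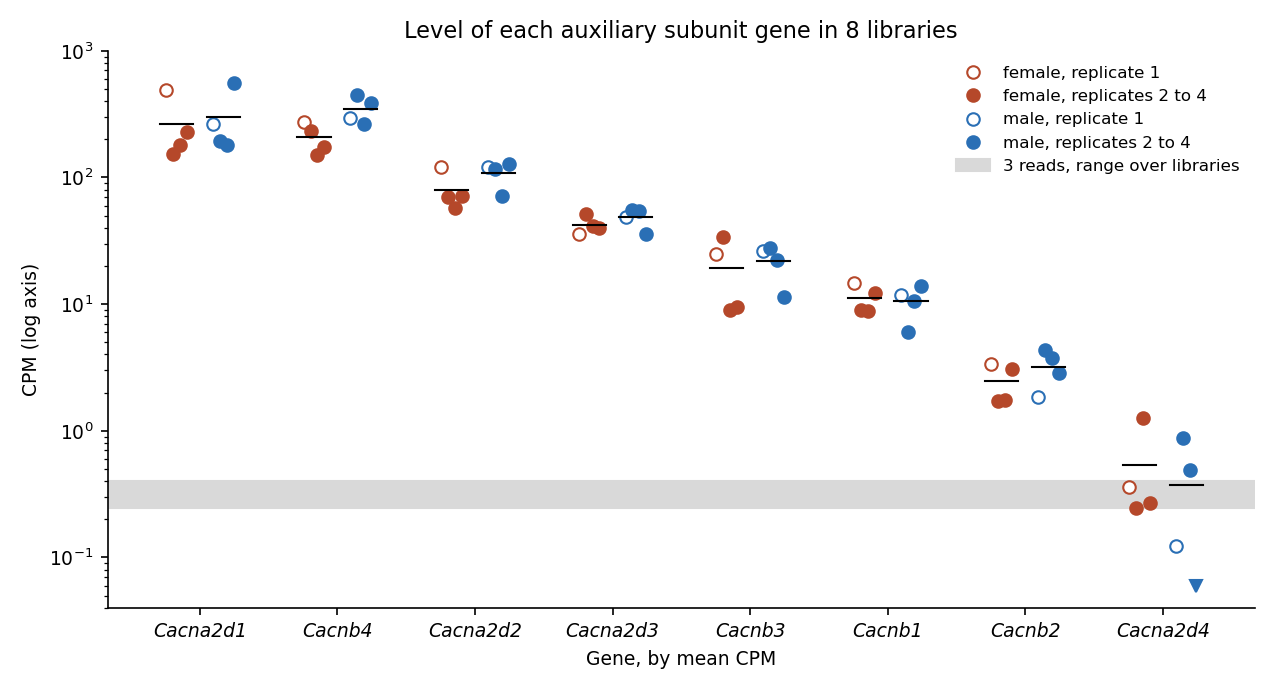
CPM on a log axis of each auxiliary subunit gene in each library, female left and male right within a gene, with replicate 1 open, replicates 2 to 4 filled and bars at the mean of 4. A triangle marks a value of 0 and the grey band the CPM of 3 reads, which Cacna2d4 straddles.

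The genes spanned a wide range of levels. By mean CPM the order was Cacna2d1 (281 ± 154), Cacnb4 (277 ± 99.8), Cacna2d2 (94.3 ± 29.4), Cacna2d3 (45.4 ± 8.08), Cacnb3 (20.6 ± 9.51), Cacnb1 (10.9 ± 2.88), Cacnb2 (2.83 ± 0.984) and Cacna2d4 (0.452 ± 0.419; SD, n = 8 throughout). Levels of neighbours in this order were not separable at the top, where Cacna2d1 stood above Cacnb4 in 4 of 8 libraries, and in the middle, where Cacnb3 stood above Cacnb1 in 6 of 8. Every other neighbour pair kept its order in 8 of 8 libraries. A 3′ end library gives about 1 read per transcript whatever its length, so CPM were not divided by length. Divided by the exonic length of each gene, the level of Cacnb4 came first, with 31.0 ± 11.1 CPM per kb, before Cacna2d1 with 22.6 ± 12.4, and Cacna2d3 (5.21 ± 0.927) and Cacnb3 (5.14 ± 2.37) could not be separated, each being higher in 4 of 8 libraries (SD, n = 8).

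Within each family 1 gene supplied most of the reads. Cacna2d1 took between 52.9% and 77.2% of the alpha-2-delta CPM, Cacna2d2 between 17.9% and 31.9%, Cacna2d3 between 4.95% and 18.8%, and Cacna2d4 at most 0.447%. Together, the genes for the gabapentinoid-binding subunits Cacna2d1 and Cacna2d2 made up 81.1% to 95.05% of it. In the beta family Cacnb4 took between 83.8% and 93.3%, Cacnb3 between 2.72% and 12.3%, Cacnb1 between 1.24% and 6.20%, and Cacnb2 between 0.546% and 1.55%. These shares do not depend on how libraries were scaled against each other. Per exonic length the mean share of Cacna2d1 was 54.5% and that of Cacnb4 79.2%, so the leading gene of each family was the same on that scale. The share of Cacnb4 averaged 86.5 ± 2.01% by female label and 90.3 ± 2.76% by male label (SD, n = 4 each), with overlapping ranges.

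**Figure D2:**
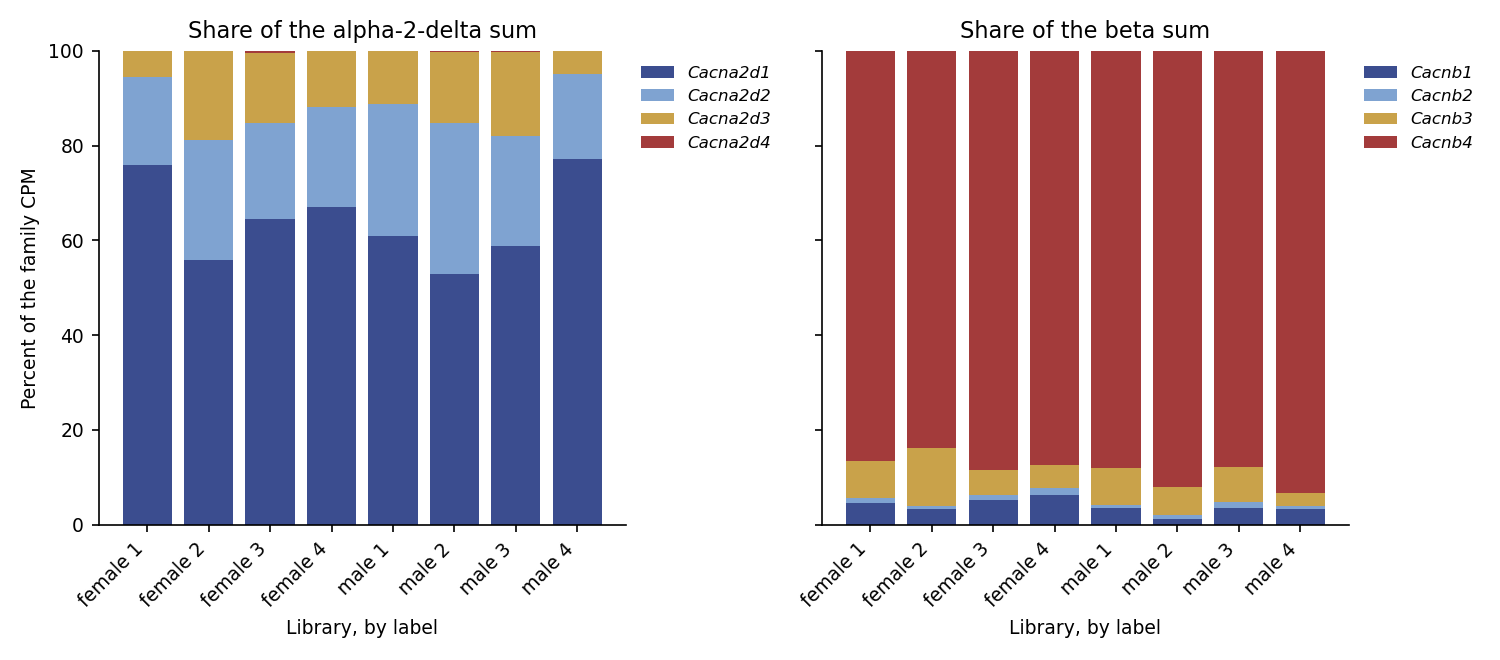
Share of the alpha-2-delta CPM (left) and of the beta CPM (right) taken by each gene, in percent, 1 bar per library by label. Cacna2d1 takes between 52.9% and 77.2% and Cacnb4 between 83.8% and 93.3%.

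The balance of the leading alpha-2-delta and beta genes differed between libraries more than between labels. The ratio of Cacna2d1 to Cacnb4 CPM was 1.80, 0.667, 1.22 and 1.32 in female 1 to 4, against 0.893, 0.435, 0.681 and 1.43 in male 1 to 4. It was above 1 in female 1, 3 and 4 and in male 4, and below 1 in female 2 and in male 1, 2 and 3. Division by exonic length lowers each of these ratios by the same factor, to between 0.314 and 1.30, and leaves their order as it is. The same 4 libraries had positive scores on the first principal component of all 14505 tested genes, which held 59.3% of the variance and to which both genes belong. In these 4 libraries the summed CPM of the 13 sensory neuron markers lay between 11871 and 15813, against 5853 to 9875 in the other 4. Single markers of this list did not all separate. Prph did, at 1799 CPM or more in these libraries, against at most 1185 CPM in the others. Scn10a (662 to 929 CPM, against 502 to 754 CPM) and Tubb3 (2099 to 3363 CPM, against 1766 to 3271 CPM) overlapped between these libraries and the others. The 7 markers of myelinating Schwann cells summed to 8518 to 13005 CPM in the 4 libraries with positive scores, against 16608 to 19210 CPM in the others. The sums of 5 satellite glia markers (896 to 1074 CPM in them, against 1126 to 1657 CPM) and of 6 fibroblast markers (630 to 1482 CPM, against 1573 to 2418 CPM) separated the same libraries. The sums for macrophages (153 to 274 CPM, against 90.1 to 169 CPM), skeletal muscle, endothelium and the central nervous system overlapped. The separated markers belong to the component too, so a split by its sign favours separation. The share of all tested genes that separate by this split was not computed. The part of these cell types in the ratio was not tested. In bulk tissue, fewer cells of a type and less RNA per cell cannot be told apart.

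**Figure D3:**
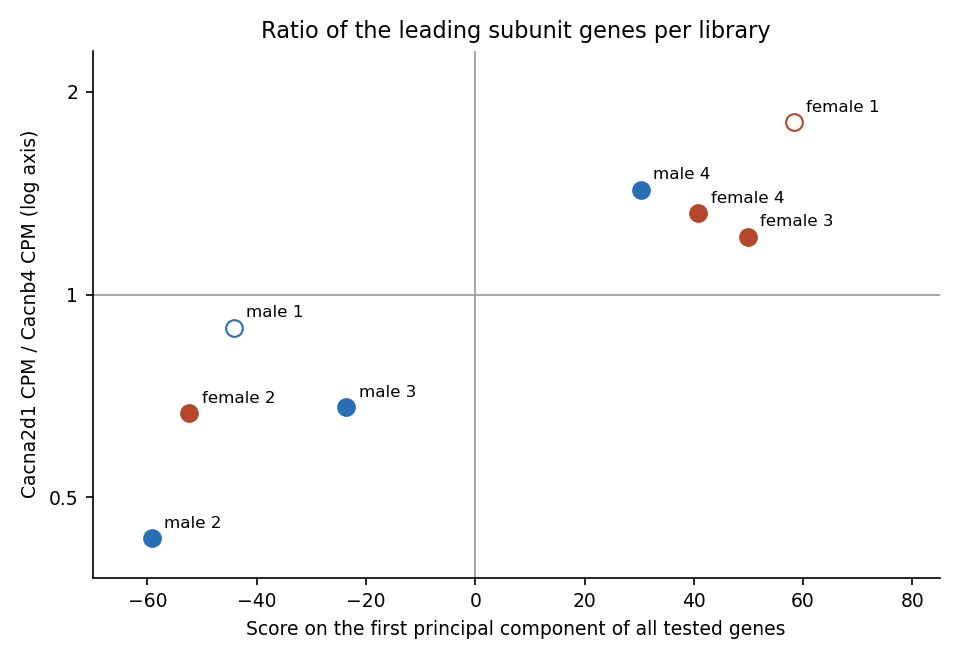
Ratio of Cacna2d1 to Cacnb4 CPM on a log axis against the score of each library on the first principal component of all tested genes, female in red, male in blue, replicate 1 open. The 4 libraries with positive scores have ratios of 1.22 to 1.80 and the other 4 of 0.435 to 0.893.

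The members did not share a common pattern over the libraries. Male 2 and male 4 were the highest libraries for Cacnb4, male 4 and female 1 for Cacna2d1 and for Cacna2d2, and female 2 and male 2 for Cacnb3, which was low in male 4. The genes whose centred log2(CPM + 1) profile over the 8 libraries lay nearest to that of Cacna2d1 were Sox11, a transcription factor gene of developing neurons, with a root mean square difference of 0.23, B930095G15Rik (0.28) and Tnr, which encodes the matrix protein tenascin-R (0.30). Sox11 had 65.6, 18.3, 26.2 and 32.0 CPM in female 1 to 4, against 27.1, 24.4, 17.4 and 94.3 CPM in male 1 to 4. That male 4 and female 1 were its highest libraries follows from its choice by likeness to Cacna2d1. Nearest to Cacnb4 were the phosphatase gene Ppm1l (0.11), Xkr4 (0.15) and D3Ertd254e (0.16), and nearest to Cacna2d2 were Tmod2, a tropomodulin gene of neurons (0.11), Flrt3 (0.15) and Fam199x (0.16). Candidates were genes whose spread was at least that of the member, 2048 for Cacna2d1, 4340 for Cacnb4 and 5861 for Cacna2d2.

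**Figure D4:**
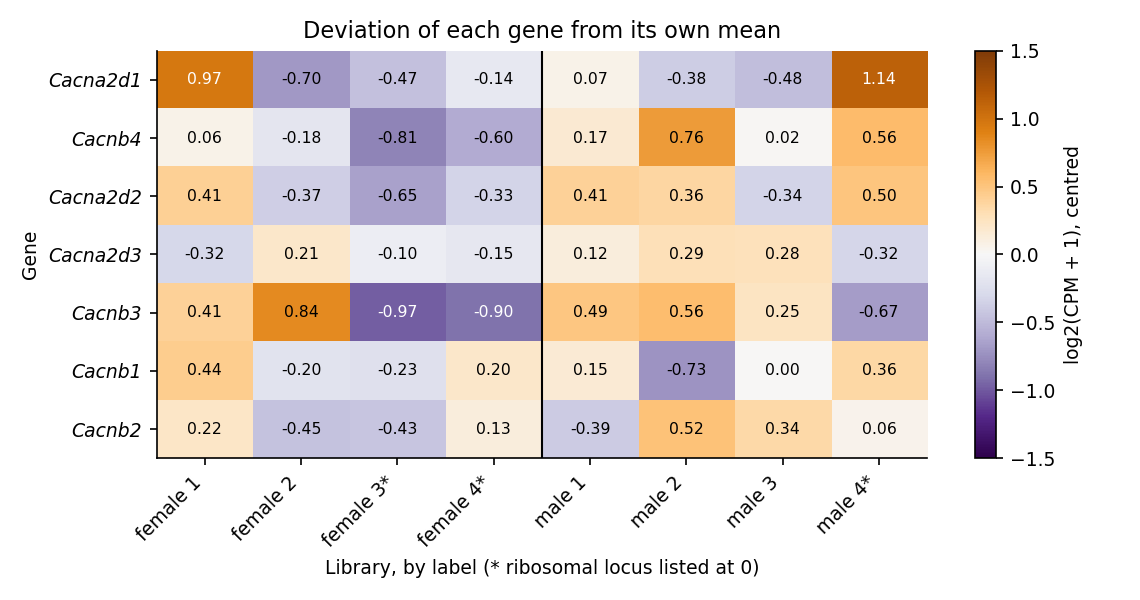
Deviation of each tested member in each library from its own mean over 8 libraries, as centred log2(CPM + 1), with libraries by label and an asterisk where the ribosomal locus was listed at 0. Cacna2d1 is highest in female 1 and male 4, and Cacnb3 is lowest in the 3 libraries with an asterisk.

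The design asks which of these genes differ between female and male ganglia, and by label no member passed the threshold of 0.05 on the adjusted p. Limma was fitted to the 14505 genes that averaged 1 CPM or more, 7 members among them, and it called 0 of the 7 and 0 of all genes (0%). Of all genes, 11% had an unadjusted p under 0.05 (8.26% lower by female label), and Cacnb4, lower by female label, was the only member among them. Differences are female minus male on the log2(CPM + 1) scale, where the added 1 shrinks the changes of weakly expressed genes, and 67.5% of all genes were negative with a median of −0.18. Of the 7 members 6 were negative, with a median of −0.27. After median ratio scaling, 4 of 7 members and 51.5% of all genes were negative, with medians of −0.12 and −0.02. The sign turned for Cacna2d1 and Cacna2d3 under that scaling and for Cacnb2 under quantile normalization, while Cacnb4, Cacna2d2 and Cacnb3 stayed negative under both. Without the replicate 1 libraries limma called 0 of the 7 members and 0.0414% of all genes. Xist and Ddx3y, whose values led to leaving these libraries out, were among the genes called. In this fit 6 members were negative with a median of −0.53, against 64.4% of all genes with a median of −0.12. Cacnb4 was again the only member with an unadjusted p under 0.05, as were 1.94% of all genes in its direction. Of the lists of cell type markers, only that of macrophages had sums without overlap. Its 5 genes summed to 169 to 274 CPM by female label, against 90.1 to 153 CPM by male label. Of these 5, 4 averaged at least 1 CPM. Without the replicate 1 libraries the sums were 169 to 274 CPM by female label, against 121 to 153 CPM by male label. Of all tested genes, taken singly and not as sums, 1.23% had every value by female label above every value by male label over 8 libraries, and 2.65% over 6. The sums for sensory neurons overlapped (7411 to 15813 CPM by female label, against 5853 to 11871 CPM by male label), as did those for myelinating Schwann cells (8518 to 17890 CPM by female label, against 12755 to 19210 CPM by male label). Their part in the differences by label was not tested.

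Cacnb4 had the largest difference of the 7. It averaged 207 ± 56.4 CPM by female label and 348 ± 82.5 CPM by male label (SD, n = 4 each), which is −0.76 ± 0.26 (SE) on the log2 scale, with a 95% interval of −1.32 to −0.19 (limma adjusted p = 0.446). Without the 2 libraries whose sex transcripts did not match, the labels no longer overlapped, at 231, 149 and 173 CPM in female 2 to 4, against 444, 265 and 387 CPM in male 2 to 4. Its log2 difference was then −0.97 ± 0.28 (SE; limma adjusted p = 0.946), and 4.94% of all tested genes had every value by female label below every value by male label. Leaving out male 2 as well gave −0.82. Under median ratio scaling the difference over 8 libraries was −0.56, and with limma's array weights, which count female 2 and male 4 least, Cacnb4 passed at −0.87 (adjusted p = 0.0123), together with 30.1% of all genes (22% in its direction). Within the 3 libraries with the ribosomal locus at 0 its mean was 161 CPM in 2 libraries by female label and 387 CPM in 1 by male label. In the other 5 it was 253 CPM in 2 by female label and 335 CPM in 3 by male label.

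Cacna2d2 came next, with 79.7 ± 27.97 CPM by female label and 109 ± 25.6 CPM by male label (SD, n = 4 each). Its log2 difference was −0.47 with a 95% interval of −1.07 to 0.13 (limma adjusted p = 0.465), and −0.63 without the replicate 1 libraries, where the labels overlapped by the values of female 4 and male 3 (71.5 and 71.3 CPM). Cacna2d1 averaged 264 ± 156 CPM by female label and 298 ± 175 CPM by male label (SD, n = 4 each). Its difference of −0.17 had a wide 95% interval of −1.10 to 0.76, turned to 0.18 without male 4 and to 0.034 without female 2, and was −0.53 without the replicate 1 libraries. A library of each label held its highest values, and the interval covers differences in either direction.

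In the fit of all 8 libraries with equal weight, the other 4 tested members, like Cacna2d1, differed by less than their SD between libraries. Cacnb3 had a log2 difference of −0.31 (95% interval −1.27 to 0.65), which leaving out 1 library moved to between −0.64 (without female 2) and −0.039 (without female 3). With a term for the ribosomal locus, chosen after the Cacnb3 levels had been seen to split by it, the difference was 0.030, and this value is a description only. With array weights it passed, at −0.998 (adjusted p = 0.0258), beside the 30.1% of all genes named above. Cacna2d3 had a difference of −0.18 (−0.65 to 0.28) and Cacnb2 of −0.27 (−0.89 to 0.36). Cacnb1 was the only positive member, at 0.10 (−0.52 to 0.73), with 11.2 ± 2.81 CPM by female label and 10.6 ± 3.34 CPM by male label (SD, n = 4 each), and its sign turned without female 1 or without male 2. Without the replicate 1 libraries the differences of Cacnb3, Cacna2d3, Cacnb2 and Cacnb1 were −0.39, −0.098, −0.56 and 0.042. That of Cacnb2 (95% interval −1.26 to 0.14) was then larger in size than its log2 SD of 0.38 over 8 libraries. A p that misses the threshold does not show equal levels, and each of these intervals includes changes in both directions.

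**Figure D5:**
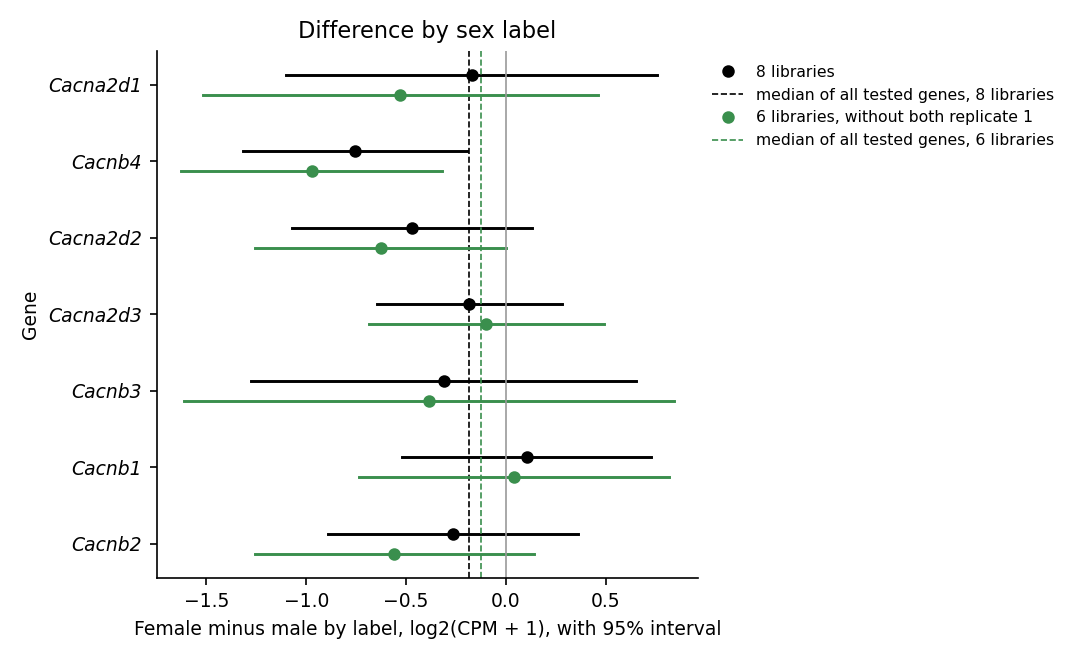
Difference by label, female minus male, on the log2(CPM + 1) scale for the 7 tested members, with 95% intervals of limma for 8 libraries (black) and for 6 without both replicate 1 libraries (green). Dashed lines mark the medians of all tested genes, −0.18 and −0.12, and only the intervals of Cacnb4 lie wholly below 0.

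Genes that work with these subunits were read from 5 lists of 47 genes. Of these, 41 were tested and 0 passed in either direction, with or without the replicate 1 libraries. Of the 7 alpha-1 genes tested, 6 were negative with a median of −0.43, against −0.18 for all genes, and 6 with a median of −0.24 after median ratio scaling. Without the replicate 1 libraries 6 were negative with a median of −0.43, against −0.12 for all genes. The most abundant were Cacna1b, which forms N-type channels at nerve endings, Cacna1a, the P/Q-type channel, Cacna1c, an L-type channel, and Cacna1h, a T-type channel that does not need a beta subunit. Cacna1b had 52.6, 70.0, 35.9 and 42.4 CPM in female 1 to 4, against 81.4, 104, 69.8 and 73.3 CPM in male 1 to 4, and the labels overlapped by the values of female 2 and male 3. Its log2 difference was −0.72 ± 0.24 (SE; limma adjusted p = 0.446), close in size to that of Cacnb4, and −0.76 without the replicate 1 libraries. Cacna1b, Cacna1h and Cacna1d were highest in male 2, the library with central nervous system transcripts, and Cacna1a and Cacna1c in male 4. How far those transcripts bear on the partner genes was not tested. The ratio of Cacnb4 to Cacna1b CPM was 5.20, 3.31, 4.16 and 4.08 in female 1 to 4, against 3.63, 4.27, 3.79 and 5.28 in male 1 to 4, so that the labels overlapped fully. The log2 differences of Cacna1a, Cacna1c, Cacna1h and the L-type gene Cacna1d were −0.43, −0.30, −0.93 and −0.55. Without the replicate 1 libraries they were −0.36, −0.078, −0.76 and −0.43.

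Among the 10 ligands and partners of alpha-2-delta subunits, 9 were negative with a median of −0.26. After median ratio scaling 7 were negative, and also 7 without the replicate 1 libraries, with a median of −0.21 in the latter fit. Prnp, the prion protein gene, had a difference of −0.36, or −0.29 without the replicate 1 libraries. Of 7 tested gamma subunit genes 5 were negative, or 4 after median ratio scaling, among them Cacng2, which encodes the AMPA receptor partner stargazin, at −0.78, and Cacng7 at −1.44. Of the RGK proteins, small GTPases that bind beta subunits and inhibit channels, Rem2 had a difference of −0.55 and Gem of 0.18. Without the replicate 1 libraries these were −0.39 and 0.33. Rrad and Rem1 lay below the filter. Of the 15 other channel partners 9 were negative, or 8 after median ratio scaling, with the channel anchors Stac at −0.55 and Stac2 at 0.50. Without the replicate 1 libraries 12 were negative, with Stac at −0.30 and Stac2 at 0.47.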

How the data were processed

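Dorsal root ganglion RNA was measured in 8 libraries; ribosome profiling was not analysed here. The authors deposited values under the name TPM that have the properties of CPM: each library sums to 1000000, and 98.3% to 98.6% of values below 200 reads are whole multiples of 1 common step within 0.05 reads. Depths and reads per gene were read from that step. Per the submitters' processing notes, which give no roles, Cufflinks 2.2.1, Bowtie2 2.2.9, TopHat2 2.1.1 and FastQC 0.11.5 were used with mm10 and GRCm38.p4. The strand setting is not given in the sources used here, so reads of antisense partners cannot be told apart. The 48431 rows were summed by symbol, 110 symbols being on several rows, to 48315. Gene positions and exonic lengths come from GENCODE on GRCm38, matched by ID for 8 of 8 members, of which Cacna2d3 and Cacnb3 carry another version number there.

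Limma 3.58.1 in R 4.3.3 was fitted with a trended prior to log2(CPM + 1) of the genes averaging 1 CPM or more, with Benjamini-Hochberg adjustment over all 14505 of them and a threshold of 0.05. Groups follow the labels, and a second fit left out both replicate 1 libraries. The fit was tested on simulated data. Named genes are all members, the 4 alpha-1 genes of highest mean, the 2 genes of smallest p in each partner list, and the 3 nearest genes of each of the 3 most abundant members. A partner gene that this rule names is not reported here. The members and lists were chosen with earlier results of these data known. Alternatives were the pseudocount, the filter, median ratio, upper quartile and quantile scaling, a variance with no trend, array weights, a replicate block, libraries left out and, chosen after seeing the data, a term for the ribosomal locus listed at 0. Figures were drawn with matplotlib 3.10.9 in Python 3.11.15.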

Additional observations from a re-analysis of the deposited data

Results flagged for a closer look

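Cacna2d4 in the library labelled female 3 stood apart from the other 3 libraries of its label, with 1.26 CPM against 0.247 to 0.361 CPM. The value rests on 10 reads, and its exact binomial interval of 0.604 to 2.32 CPM overlaps those of the other 3. It was the only value to stand apart among 24 groups of 4 libraries examined, where chance gives about 1 in 20.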

How the results depend on the processing

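The count of called genes over 8 libraries was 0, with 1595 at an unadjusted p under 0.05. It was 4363 with array weights and 6 without both replicate 1 libraries, with Xist and Ddx3y among these 6. Leaving out 1 library at a time gave 0 to 1354, the highest without female 2. Over 6 libraries it was 6, but 0 with no filter and 3 to 5 with 1 library left out, the lowest without female 4 or male 3. With array weights Cacnb3 (−0.998) and Cacnb4 (−0.87) passed. Over 8 libraries the sign turned for Cacna2d1 under median ratio scaling (0.023), array weights (0.016) and with 1 library left out (−0.52 to 0.18), for Cacna2d3 under median ratio scaling (0.0085), for Cacnb2 under quantile normalization (0.043), for Cacnb3 with the locus term (0.030) and for Cacnb1 with 1 library left out (−0.12 to 0.24). Over 6 it turned for Cacna2d1 with array weights (0.067), for Cacna2d3 under median ratio scaling (0.031), the locus term (0.059) and 1 library left out (−0.30 to 0.0041), for Cacnb1 with the locus term (−0.11) and 1 library left out (−0.26 to 0.28), and for Cacnb3 with the locus term (0.088). The cause was not tested. Cacnb4 and Cacna2d2 were negative under every alternative run. By median CPM, or per exonic length, 2 members took another rank. Per exonic length the mean shares were 54.5% for Cacna2d1, 30.5% for Cacna2d2, 6.84% for Cacnb1, 0.581% for Cacnb2, 13.3% for Cacnb3 and 79.2% for Cacnb4. Of 257 alternative values of the members' differences 237 kept their sign and missed the threshold, 18 turned sign and 2 passed. The deviations of libraries with the same replicate number had correlations of −0.31, 0.70, −0.15 and 0.44, and those with different numbers of −0.81 to 0.47. These mixed values do not settle whether the numbers pair the libraries. With a replicate block the counts of called genes stayed at 0 and 6, and Cacnb4 at −0.76 over 8 libraries had a limma adjusted p of 0.234. The block raised the genes at an unadjusted p under 0.05 from 1595 to 2694 over 8 libraries and from 352 to 1438 over 6. Depth limits Cacna2d4 and Cacnb2. Cacnb2 had 14 to 40 reads per library.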

Other observations

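The subunit genes Cacng1 and Cacng6 of skeletal muscle, picked out after their values were seen, matched the muscle marker sum at its ends but not between them. Cacng6 had 32.8, 9.46, 2.39 and 14.8 CPM in female 1 to 4, against 8.55, 9.14, 15.1 and 6.56 CPM in male 1 to 4, and Cacng1 had 3.43, 1.48, 0.504 and 1.73 CPM in female 1 to 4, against 1.71, 1.41, 2.45 and 0.615 CPM in male 1 to 4. Female 1 was highest and female 3 lowest for both genes, as for the muscle sum of 1870 and 368 CPM in these libraries. Male 4 was second lowest for both genes. Male 1 had the second highest muscle sum, 1812 CPM, but only 8.55 CPM of Cacng6 and 1.71 CPM of Cacng1. Male 3 was second highest for both genes, with a muscle sum of 1664 CPM. The low values of Cacng1 lay near the counting limit, where 3 reads are 0.378 CPM in female 3 and 0.308 CPM in male 4. Cacna1s did not follow the sum in male 4, where its 5 reads came next after the 9 reads of female 1. Whether muscle RNA bears on these levels was not tested.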
